A study of Homo sapiens with 16 samples.

Results

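The 59 genes described here belong to 7 solute carrier (SLC) families that move amino acids, or close relatives of amino acids, across membranes. They are all the rows of the deposited tables whose symbol reads SLC followed by 1, 3, 6, 7, 36, 38 or 43, the letter A and a number, among 20314 genes in the U251 tables and 20626 in the U343 tables. The rows were matched by symbol and by no measured value, but the members were chosen with earlier results of these data known. SLC6 has 19 of them, SLC7 13, SLC38 11, SLC1 7, SLC36 4, SLC43 3 and SLC3 2.

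Amino acid transporters set how much glutamine, leucine, cystine or arginine a cell can take up, and through that how much it can build protein, glutathione and polyamines. The SLC1 family carries glutamate, aspartate and small neutral amino acids. SLC6 carries neurotransmitters, creatine, taurine, betaine and glycine with sodium and chloride, and SLC7 holds the cationic transporters and the light chains that reach the membrane only when paired with an SLC3 heavy chain. SLC36 is proton coupled, SLC38 carries small neutral amino acids and glutamine with sodium, and SLC43 holds carriers of large neutral amino acids and a nucleobase carrier. Astrocytes clear glutamate through SLC1 proteins, and glioblastoma cells are known for cystine uptake coupled to glutamate release.

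miR-137 is a microRNA of the brain that is scarce in glioblastoma, and the mimic stands for its mature form. A microRNA pairs with messenger RNAs mainly through its seed, and paired messengers are shortened at the tail, lose the poly(A) binding protein PABP and are degraded or less translated. The mature strand and the opposite arm of the hairpin are shown because the mimic stands for this microRNA. Both are written 5′ to 3′ from RefSeq (GRCh38.p14), with bases 2 to 8, the seed, in capitals.
hsa-miR-137-3p: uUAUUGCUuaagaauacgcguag
hsa-miR-137-5p: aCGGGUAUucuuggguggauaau
The 3p strand lies on the minus strand of chromosome 1, chr1:98046091-98046113, and a site paired with its seed would read AGCAAUA. Such sites were not searched here, because no transcript sequence was used.

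The established glioblastoma lines U251 and U343 were reverse transfected with 25 nM of mimic, either miR-137 or control, and were collected at 48 h. Total RNA was sequenced as RNASeq, and RNA recovered with PABP antibodies as RIPSeq. Each of the 8 combinations of line, assay and mimic has 2 libraries, numbered 1 and 2. By the labels, the control cells differ from the miR-137 cells in the mimic alone, and other differences in handling are not recorded there. No untransfected cells were analysed here. After depletion of ribosomal RNA, cDNA was made from random hexamers for U251 and with the TotalScript kit for U343, and both were tagged with Nextera kits, so the line and the cDNA step cannot be told apart. Nothing in the labels says that the 2 libraries of a group came from separate cultures, so that the p-values measure the spread between libraries, which may be technical.

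Depth was 10156675 to 18224061 counted reads per library in U251 RNASeq, 22359794 to 30731476 in U251 RIPSeq, 37952273 to 45134766 in U343 RNASeq and 37736206 to 45055184 in U343 RIPSeq. CDK6, a known miR-137 target, was lower with the mimic in each of the 8 miR-137 libraries than in either control of its experiment. The summed glial and glioma markers were carried in U251 by VIM and CD44, with GFAP at 32.0 CPM (read counts scaled to a common library size, with each library's total adjusted by its TMM factor) in the RNASeq controls. In U251 RNASeq their sum was between 12492 and 12878 CPM in the controls and between 6198 and 6397 CPM with the mimic, with 5 of 8 tested markers lower and 1 higher. In U343 RNASeq the same sum was 11911 to 12737 CPM in the controls and 12370 to 14177 CPM with the mimic. There 1 of 8 tested markers was lower and 2 higher. The U343 RNASeq controls had GFAP at 4598 CPM. OLIG2 was near 0 in both lines. Immune markers summed to 4.18 to 20.3 CPM across control libraries, against 5.60 to 111 CPM across miR-137 libraries. In U343 RNASeq the neuron markers summed to 642 to 779.8 CPM for control cells and to 1081 to 1154 CPM after the mimic. That sum was carried by TUBB3, whose group means were 708 CPM for control and 1105.5 CPM for miR-137. Of 3 tested neuron markers 2 were higher, TUBB3 and the scarce SYP (means of 1.02 and 10.9 CPM). SYT1 was not (1.62 and 1.23 CPM). In U251 RNASeq the neuron markers summed to 38.1 to 38.7 CPM in the controls and 28.2 to 34.8 CPM with the mimic. Of 2 tested there, 1 was lower and 0 higher. The part of these shifts in the results was not tested. The summed endothelial markers stayed between 0.79 and 37.9 CPM. Some libraries stood apart. Between the 2 U251 RIPSeq controls the chi-square averaged 216 over genes, where counting error alone gives about 1, against 2.46 between the 2 miR-137 libraries of that experiment. In U343 RNASeq the 2 miR-137 libraries differed by 175. Summed CPM of 12 interferon response genes was 150 to 280 in the controls of all experiments and 10923 to 13623 in 7 of the miR-137 libraries, but 239 in U343 RNASeq miR-137 library 1. Interferon genes therefore moved with the mimic in 3 experiments and in 1 of 2 libraries in the fourth, and their part in the results below was not tested. In bulk RNA, fewer cells of a type and less RNA per cell cannot be told apart.

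Of the 59 members, 28 had enough reads to be tested in each of the 4 experiments and 15 in some of them. The other 16 never passed the filter on low counts, and none of them had more than 18 reads in a library. They were 9 SLC6 genes, SLC6A2, SLC6A3 and SLC6A5 among them, and SLC1A6, SLC1A7, SLC7A3, SLC7A9, SLC7A13, SLC38A8 and SLC38A11. Several of these carry neurotransmitters (noradrenaline, dopamine, glycine) or serve neurons, kidney and gut. The most abundant member by reads was SLC7A11 in U251 RNASeq, with up to 15947 reads in a library, and SLC7A5 in U343, with up to 190055. Reads were not compared between genes per length, since no transcript lengths were used. The 59 together took 0.241% to 0.677% of the counted reads.

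The first question was which members changed with miR-137, in which line, and in total or PABP-bound RNA. Each experiment was tested over all its genes with edgeR's quasi-likelihood test, and a member is called lower or higher where the p adjusted over all tested genes is under 0.05. In U251 RNASeq, 11 of the 29 tested members were lower (37.9%, against 29.0% of all tested genes) and 7 higher (24.1% against 28.7%). U343 RNASeq had 8 of 40 lower (20.0% against 11.7%) and 1 higher (2.50% against 8.31%). In U343 RIPSeq 14 of 38 were lower (36.8% against 27.8%) and 4 higher (10.5% against 28.5%). U251 RIPSeq gave 2 of 38 lower (5.26% against 0.263%) and 0 higher against 0.944%. An unadjusted p under 0.05 was reached by 11 members and by 2828 of all 14087 tested genes. DESeq2 called 7 members, all of them lower, and its share of all genes was not computed. The median log2 change over tested members was close to that of all genes in both RNASeq experiments (-0.07 against 0.02 in U251 and -0.05 against 0.02 in U343). It was -0.15 against 0.00 in U343 RIPSeq and -0.51 against -0.02 in U251 RIPSeq. Shares of all genes were not computed for edgeR counts with a library left out. The count in U251 RIPSeq depends on its controls. More members were called without either control library, and fewer without either miR-137 library. The lone control was then assumed to vary like the miR-137 libraries, whose chi-square averaged 2.46, against 216 between the controls. The spread of the controls did not enter those fits. In U343 RNASeq the lower calls were lost without either control library, and their number rose without either miR-137 library.

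**Figure D1:**
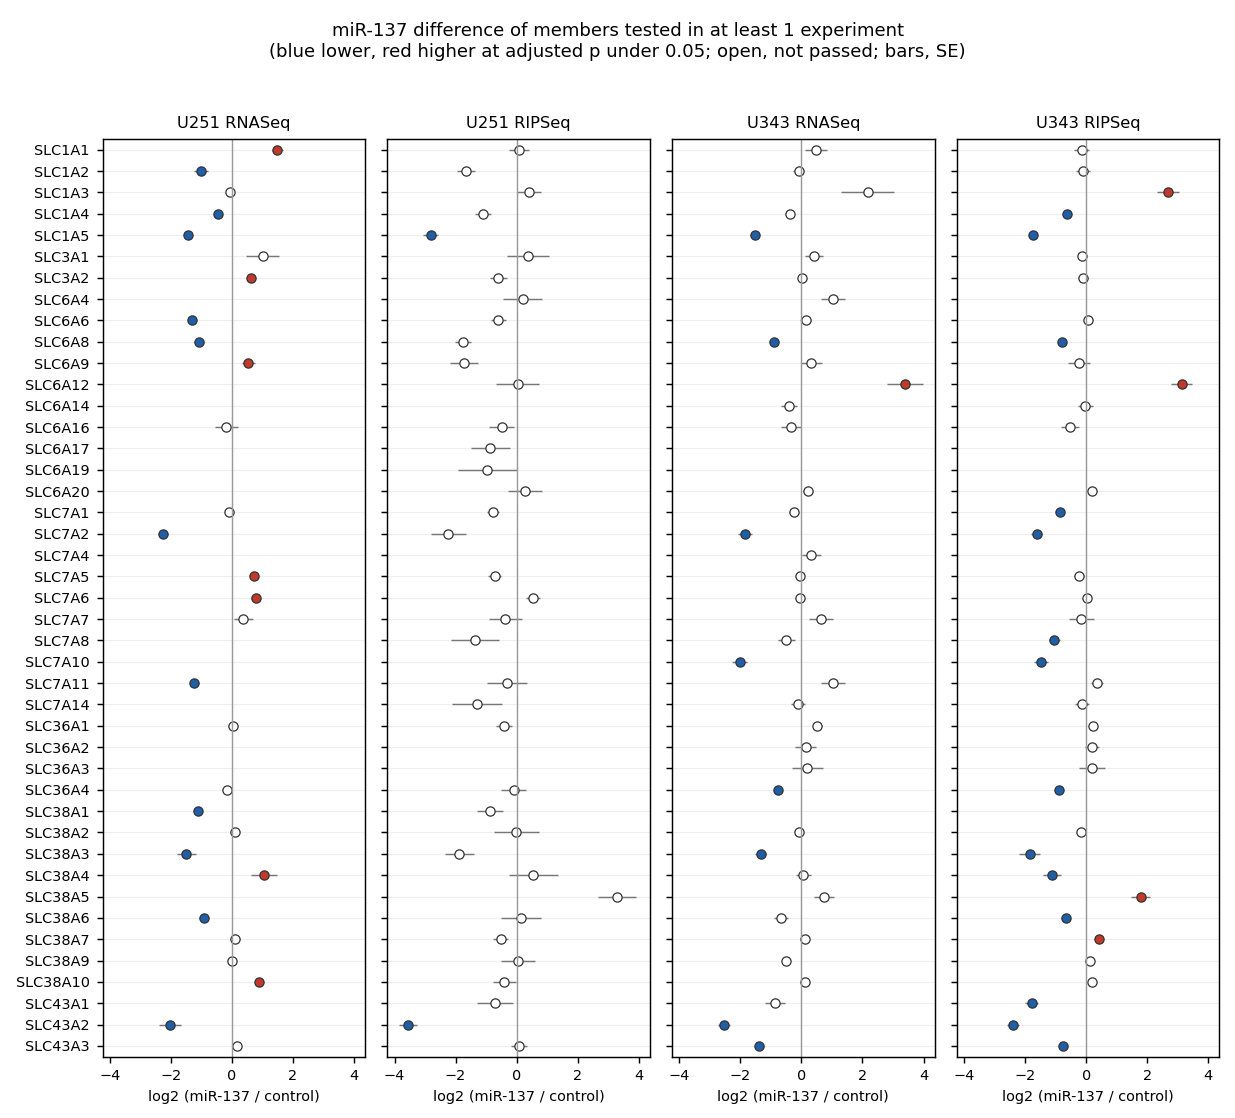
The log2 ratio of miR-137 to control (x axis) is plotted for the 43 members tested in at least 1 experiment (rows, by family), with 1 panel per experiment, bars for the SE and filled points for adjusted p under 0.05. SLC1A5 and SLC43A2 lie left of 0 with filled points in all 4 panels, and the U251 RIPSeq panel holds only these 2 filled points.

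With miR-137, 5 of the 28 members tested in every experiment fell in the RNASeq of both lines. They were SLC1A5, SLC43A2, SLC7A2, SLC6A8 and SLC38A3. Of the 12458 genes tested in both, 7.83% were lower in both. The same 5 fell in U343 RIPSeq, and SLC1A5 and SLC43A2 also in U251 RIPSeq, where 0.180% of the genes tested in every experiment were lower in all 4. No member rose in the RNASeq of both lines, against 3.71% of genes.

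SLC1A5, the main glutamine carrier of many proliferating cells, lies at chr19:51969982-51983682 (hg18, minus strand). In U251 RNASeq it stood at 176 and 157 CPM in control cells and 61.9 and 59.8 CPM with miR-137. In U343 RNASeq it was 195 and 247 CPM against 75.0 and 78.5 CPM. The groups did not overlap in either line, and the miR-137 level was 36.6% of control in U251 and 34.8% in U343, with log2 changes of -1.45 ± 0.13 (SE, adjusted p 8.59e-07) and -1.52 ± 0.15 (adjusted p 0.0092). PABP-bound SLC1A5 in U251 fell from 591 and 462 CPM to 74.6 and 74.9 CPM, a log2 change of -2.82 ± 0.24 (adjusted p 0.027). U343 RIPSeq gave 231 and 256 CPM in control cells and 75.2 and 71.3 CPM with the mimic, a log2 change of -1.73 ± 0.09 (adjusted p 7.97e-06). With miR-137 the CPM of SLC1A5 therefore lay between 59.8 and 78.5 in all 8 libraries, each scaled within its own experiment. The U251 RIPSeq call was lost when either miR-137 library was left out.

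SLC43A2, a facilitated carrier of leucine and other large neutral amino acids (chr17:1424446-1478880, minus strand), showed the largest fall of the members named by rule in both RIPSeq and in U343 RNASeq. Its U251 RNASeq level went from 2.74 and 2.81 CPM to 0.63 and 0.71 CPM, on 89 control and 15 miR-137 reads in all, a log2 change of -2.04 ± 0.35 (adjusted p 0.000276). In U343 RNASeq it was 11.7 and 11.9 CPM against 1.78 and 2.29 CPM, -2.53 ± 0.19 on the log2 scale (adjusted p 0.00711). The PABP-bound level fell to 8.46% of control in U251, from 14.7 and 11.6 CPM to 1.11 and 1.10 CPM, with a log2 change of -3.56 ± 0.29 (adjusted p 0.0256). U343 RIPSeq had 15.1 and 20.8 CPM in control cells and 3.02 and 3.78 CPM with miR-137, a log2 change of -2.40 ± 0.19 (adjusted p 4.19e-05). Controls and miR-137 libraries were far apart in each experiment. The call in U251 RIPSeq held under each of the 11 alternatives, those leaving out a library included.

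SLC7A2 imports arginine, lysine and ornithine. In U251 RNASeq its control libraries held 37.97 and 39.66 CPM and its miR-137 libraries 9.20 and 7.01 CPM. U343 RNASeq had 5.997 and 6.782 CPM in control cells and 1.495 and 2.027 CPM with miR-137. The falls, to 20.9% and 27.6% of control, were -2.26 ± 0.17 (adjusted p 1.7e-07) and -1.86 ± 0.22 (adjusted p 0.0131) on the log2 scale. PABP-bound SLC7A2 in U343 was 4.28 and 4.28 CPM in control cells and 1.31 and 1.48 CPM with the mimic, a log2 change of -1.62 ± 0.17 (adjusted p 0.000177). In U251 RIPSeq the 2 controls lay at 8.01 and 22.9 CPM and both miR-137 libraries at 3.48 and 3.05 CPM. The groups were apart there too, but the difference of -2.24 ± 0.57 did not pass (adjusted p 0.146).

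SLC6A8 is the creatine transporter (chrX:152606946-152615242, plus strand). It went from 42.7 and 48.9 CPM to 19.0 and 24.1 CPM in U251 RNASeq (-1.09 ± 0.15, adjusted p 5.44e-05). In U343 RNASeq the values were 64.9 and 79.1 CPM against 35.4 and 42.3 CPM (-0.89 ± 0.15, adjusted p 0.0268). U343 RIPSeq had 165 and 163 CPM against 91.7 and 97.1 CPM (-0.79 ± 0.08, adjusted p 0.000147). The fall was to about the same share of control in each of these, 47.1%, 54.0% and 57.6%. In U251 RIPSeq it was 115 and 93.3 CPM against 30.0 and 31.9 CPM, and -1.75 ± 0.26 did not pass (adjusted p 0.0665).

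SLC38A3, a glutamine carrier of astrocytes and liver, was scarce in U251, at 3.00 and 3.36 CPM in the RNASeq controls and 1.08 and 1.15 CPM with miR-137 (log2 change -1.50 ± 0.31, adjusted p 0.00104). In U343 RNASeq it was 13.4 and 10.6 CPM against 4.84 and 4.69 CPM (-1.33 ± 0.18, adjusted p 0.0163). PABP-bound SLC38A3 in U343 varied between the controls, 19.3 and 38.3 CPM, and was 6.02 and 10.0 CPM with the mimic (-1.84 ± 0.34, adjusted p 0.00255). All 5 calls in U343 RNASeq were lost when either control library was left out, and over all 4 libraries left out in turn the log2 changes of the 5 members lay between -2.72 and -0.74.

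**Figure D2:**
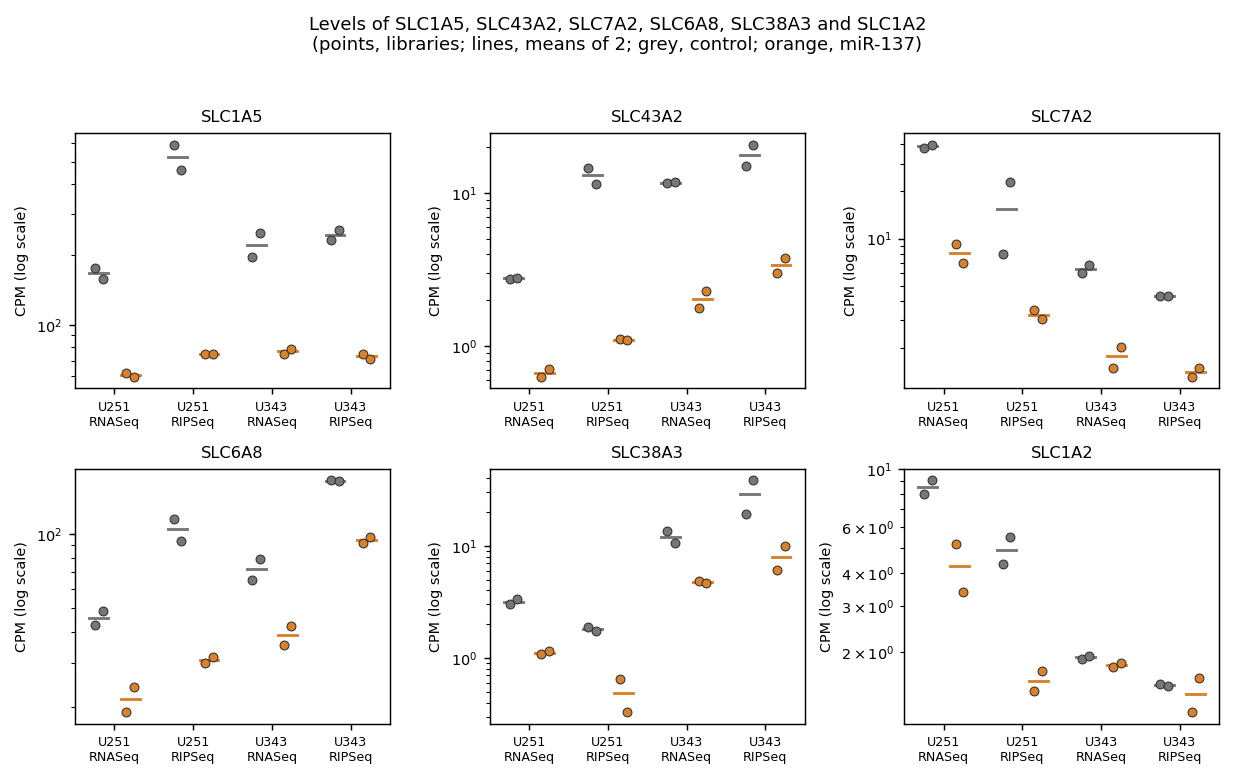
CPM on a log axis is plotted for each of the 16 libraries (points), with group means as lines, for SLC1A5, SLC43A2, SLC7A2, SLC6A8, SLC38A3 and SLC1A2. The first 5 are lower with miR-137 (orange) than control (grey) in every experiment, while SLC1A2 is lower in U251 and nearly level in U343.

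The glutamate carriers of the SLC1 family differed among themselves. SLC1A2, the main glutamate carrier of mature astrocytes, fell in U251 RNASeq from 8.04 and 9.04 CPM to 5.14 and 3.37 CPM (-1.01 ± 0.23, adjusted p 0.00204). In U251 RIPSeq it was 4.33 and 5.47 CPM against 1.42 and 1.69 CPM, and -1.66 ± 0.29 did not pass (adjusted p 0.0871). In U343 it was near 1.9 CPM in the RNASeq controls and hardly differed, with log2 values of -0.09 ± 0.18 in RNASeq and -0.11 ± 0.22 in RIPSeq. The difference in the RNASeq response between lines, 0.90 ± 0.35, did not pass (adjusted p 0.0918).

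SLC1A1, the glutamate carrier of neurons and epithelia, rose in U251 RNASeq from 5.94 and 5.74 CPM to 17.5 and 15.1 CPM (1.48 ± 0.18, adjusted p 1.25e-05). Its PABP-bound level in U251 was 7.71 and 12.4 CPM in control cells and 10.4 and 10.8 CPM with miR-137, so that the groups overlapped (0.07 ± 0.32). SLC1A3, the other astrocyte glutamate carrier, was at 49.1 to 56.0 CPM in the 4 U251 RNASeq libraries, with overlapping groups (-0.07 ± 0.13). In U343 it was near absent, with 15 control reads in RNASeq and 19 in RIPSeq. There it rose in RIPSeq, from 0.13 and 0.32 CPM to 1.56 and 1.33 CPM (2.68 ± 0.36, adjusted p 0.00056), with a log2 value of 2.16 without control library 1 and 3.40 without control library 2. In U343 RNASeq the control libraries had 8 and 7 reads, and the miR-137 libraries 12 in library 1 and 57 in library 2, a log2 value of 2.17 ± 0.87 that did not pass (adjusted p 0.154). Library 1 is the one in which the interferon genes stayed at the control level, and the part of that difference in SLC1A3 was not tested.

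SLC1A4, which carries alanine, serine and cysteine, fell in U343 RIPSeq from 55.4 and 55.5 CPM to 36.3 and 35.4 CPM (-0.63 ± 0.08, adjusted p 0.000371). In U251 RNASeq it was 45.1 and 45.9 CPM against 32.4 and 34.1 CPM (-0.45 ± 0.13, adjusted p 0.00953), a call lost with upper-quartile scaling (-0.31) and with the deposited totals (-0.19). Those scalings moved the median log2 change of all genes in U251 RNASeq from 0.02 to 0.16 and 0.28.

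Of the SLC3 heavy chains and SLC7 light chains that pair with each other, SLC3A2, SLC7A5 and SLC7A6 rose and SLC7A11 fell in U251 RNASeq. SLC3A2, the heavy chain of most pairs, rose from 126 and 123 CPM to 175 and 206 CPM (0.61 ± 0.13, adjusted p 0.00135). Its partner SLC7A5, which exchanges glutamine for leucine and other large neutral amino acids, rose from 85.9 and 78.9 CPM to 126 and 148 CPM (0.73 ± 0.13, adjusted p 0.000361). SLC7A6, a partner that exchanges arginine for neutral amino acids, rose from 46.9 and 45.6 CPM to 85.8 and 71.9 CPM (0.77 ± 0.13, adjusted p 0.000293). Its gene overlaps SLC7A6OS on the opposite strand, and without strand the reads of the overlap cannot be told apart.

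SLC7A11, the partner that imports cystine for glutamate, fell instead, from 925 and 975 CPM to 455 and 352 CPM, or to 42.5% of control (-1.24 ± 0.16, adjusted p 2.02e-05). In U251 RIPSeq these 4 genes did not pass. SLC3A2 was at 510 and 336 CPM in control cells and 276 and 282 CPM with miR-137, and SLC7A5 at 1134 and 871 CPM against 599 and 612 CPM. For both the sign was opposite to that in RNASeq (-0.60 ± 0.28 and -0.73 ± 0.21). The difference of the response between assays was -1.27 ± 0.35 for SLC3A2 and -1.51 ± 0.29 for SLC7A5, which did not pass in edgeR (adjusted p 0.142 and 0.0857) and was called for both in DESeq2. The U251 RIPSeq controls of SLC7A11 differed by more than the groups did, at 177 and 698 CPM, with 360 and 348 CPM in the miR-137 libraries. SLC7A6 kept its RNASeq direction in U251 RIPSeq, at 53.1 and 56.6 CPM in control cells and 76.8 and 81.4 CPM with miR-137.

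In U343 the 3 genes that rose in U251 RNASeq were close to level. SLC3A2 was at 1346 and 1485 CPM in the RNASeq controls and 1412 and 1456 CPM with miR-137 (0.02 ± 0.08). SLC7A5 was at 2526 and 3145 CPM against 2637 and 2857 CPM (-0.05 ± 0.13), and SLC7A6 at 83.2 and 74.2 CPM against 71.3 and 79.9 CPM (-0.06 ± 0.11). These groups overlapped. SLC7A11 was higher with the mimic in both U343 RNASeq libraries, 87.7 and 140 CPM against 38.8 and 73.4 CPM, but 1.02 ± 0.39 did not pass (adjusted p 0.14).

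**Figure D3:**
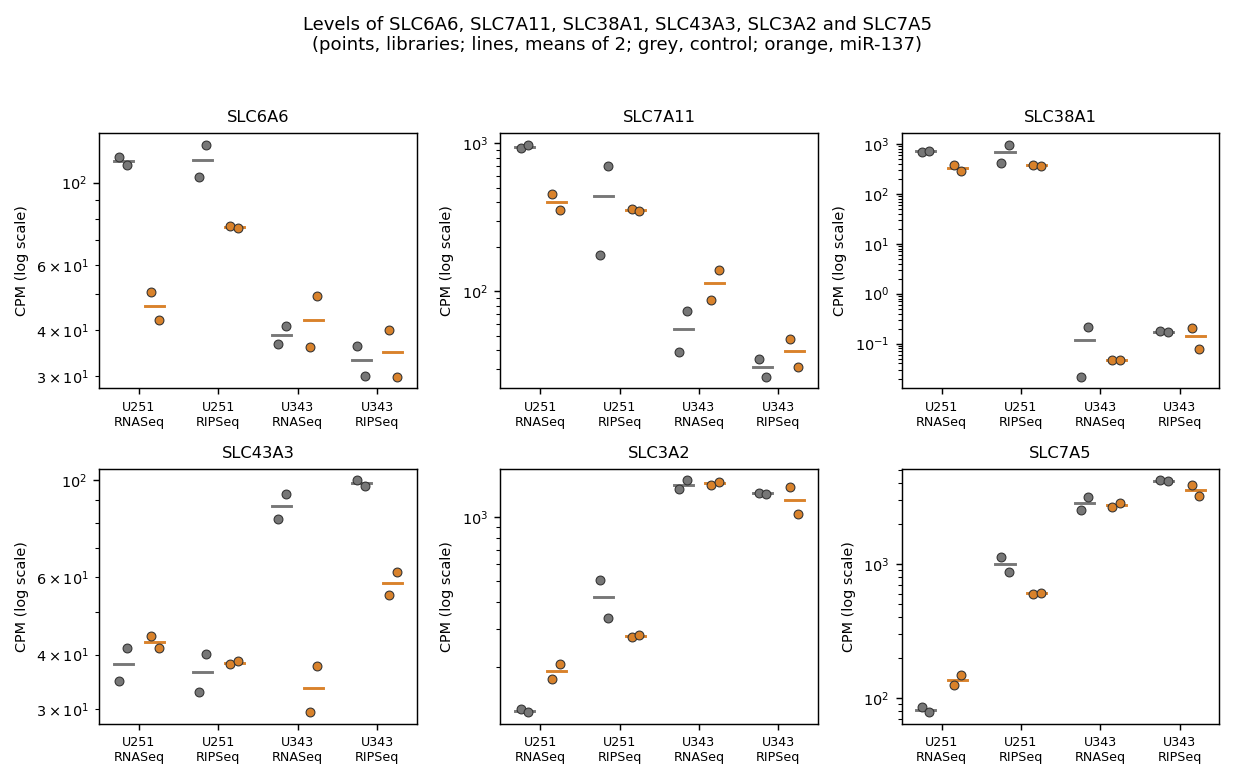
CPM on a log axis is plotted for each library (points, with group means as lines) for SLC6A6, SLC7A11, SLC38A1, SLC43A3, SLC3A2 and SLC7A5. SLC6A6 and SLC7A11 fall with miR-137 (orange) in U251 RNASeq and not in U343 RNASeq, SLC43A3 falls in U343, and SLC38A1 is near absent from U343.

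Other SLC7 members fell in U343. SLC7A10, a carrier of small neutral amino acids including serine, was at 1.78 and 1.79 CPM in the RNASeq controls and 0.38 and 0.50 CPM with miR-137 (-2.02 ± 0.25, adjusted p 0.0137). PABP-bound, it went from 1.46 and 1.52 CPM to 0.51 and 0.56 CPM (-1.47 ± 0.23, adjusted p 0.00122). It overlaps LRP3 on the opposite strand, and reads of the 2 cannot be told apart without strand. SLC7A8, a light chain for neutral amino acids, fell in U343 RIPSeq from 5.47 and 5.21 CPM to 2.23 and 2.94 CPM (-1.05 ± 0.18, adjusted p 0.00166). In RNASeq it was 1.80 and 2.24 CPM against 1.69 and 1.18 CPM (-0.49 ± 0.27, adjusted p 0.265). SLC7A1, the widespread arginine importer, fell in U343 RIPSeq from 204 and 174 CPM to 114 and 94.0 CPM (-0.86 ± 0.12, adjusted p 0.000797). In U343 RNASeq it was 160 and 187 CPM against 159 and 132 CPM, and -0.25 ± 0.15 did not pass (adjusted p 0.282). The difference between the 2 assays was -0.60 ± 0.22 (adjusted p 0.241). In U251 RNASeq the SLC7A1 groups overlapped (-0.09 ± 0.15).

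SLC38A1 and SLC38A2, glutamine and alanine carriers whose genes are neighbours on chromosome 12 (SLC38A1 at chr12:44863108-44949475 and SLC38A2 at chr12:45038239-45052912, both minus strand, 88763 bases apart), did not move together in U251 RNASeq. SLC38A1 fell from 694 and 728 CPM to 369 and 283 CPM (-1.12 ± 0.15, adjusted p 4.04e-05). SLC38A2 was 569 and 485 CPM in control cells and 571 and 546 CPM with miR-137 (0.08 ± 0.14). In U251 RIPSeq the SLC38A2 controls lay at 157 and 774 CPM, so that no change could be read there (-0.01 ± 0.74).

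SLC38A10, a broadly expressed member for which glutamine transport has been described, rose in U251 RNASeq from 31.0 and 27.9 CPM to 50.7 and 57.7 CPM (0.88 ± 0.14, adjusted p 0.000123). SLC38A6 fell there from 23.0 and 23.3 CPM to 12.6 and 11.9 CPM (-0.92 ± 0.15, adjusted p 0.00019), and in U343 RIPSeq (-0.67 ± 0.15, adjusted p 0.0063). It was singled out after its values were seen. In U343 RIPSeq, SLC38A5, a glutamine carrier related to SLC38A3, rose from 0.58 and 0.39 CPM to 1.36 and 2.02 CPM (1.78 ± 0.31, adjusted p 0.0019). SLC38A7, a lysosomal glutamine carrier, rose there from 37.7 and 34.1 CPM to 48.3 and 48.6 CPM (0.43 ± 0.09, adjusted p 0.00383). The lowly counted SLC38A4 was higher in U251 RNASeq (1.05 ± 0.42, adjusted p 0.0461, on 24 control and 35 miR-137 reads) and lower in U343 RIPSeq (-1.12 ± 0.28, adjusted p 0.011, on 72 and 30 reads). The arginine sensor SLC38A9 did not pass in any experiment, with log2 values from -0.51 to 0.12.

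SLC43A3 and SLC43A1 are neighbours on chromosome 11 (SLC43A3 at chr11:56931003-56951629 and SLC43A1 at chr11:57008583-57039735, both minus strand). SLC43A3, the carrier of nucleobases in the family, fell in U343 RNASeq from 81.6 and 92.8 CPM to 29.6 and 37.6 CPM (-1.38 ± 0.16, adjusted p 0.0117). In U343 RIPSeq it fell from 99.99 and 96.96 CPM to 54.7 and 61.7 CPM (-0.76 ± 0.09, adjusted p 0.000271). In U251 it did not fall, with 34.8 and 41.4 CPM in the RNASeq controls and 44.0 and 41.4 CPM with miR-137 (0.16 ± 0.14). SLC43A1, a carrier of large neutral amino acids, fell in U343 RIPSeq from 3.63 and 3.15 CPM to 0.82 and 1.15 CPM (-1.78 ± 0.22, adjusted p 0.00037). In U343 RNASeq its values were 1.75 and 2.88 CPM against 1.38 and 1.16 CPM (-0.86 ± 0.32, adjusted p 0.131). All 3 SLC43 members were thus lower in U343 RIPSeq, as were 27.8% of all genes tested there.

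SLC6A6, the taurine transporter (chr3:14419110-14505861, plus strand), fell in U251 RNASeq from 117 and 112 CPM to 50.5 and 42.6 CPM (-1.30 ± 0.13, adjusted p 3.35e-06). PABP-bound, it was 104 and 126 CPM against 76.5 and 75.6 CPM (-0.60 ± 0.24, adjusted p 0.273). In U343 the groups overlapped in both assays, with 0.14 ± 0.18 in RNASeq and 0.08 ± 0.15 in RIPSeq. A pseudogene of SLC6A6 is annotated, so that some of its reads could be shared. SLC6A9, a glycine transporter whose gene overlaps CCDC24 on the opposite strand, was higher in U251 RNASeq with miR-137, going from 4.53 and 4.83 CPM to 5.86 and 7.71 CPM (0.54 ± 0.22, adjusted p 0.0489). That call was lost under 6 of 10 alternatives. SLC6A12, the betaine and GABA transporter, was singled out after its values were seen. It rose in both U343 assays, from 1 and 3 reads in the RNASeq controls to 25 and 20 (a ratio of 11.2, 95% counting interval 4.08 to 42.8) and from 6 and 4 reads to 38 and 44 in RIPSeq (a ratio of 8.99, interval 4.65 to 19.5). The edgeR adjusted p was 0.026 and 0.000187.

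Among the 4 proton-coupled SLC36 members, SLC36A4 was the one edgeR called with miR-137, in both U343 assays and neither U251 assay (chosen after its values were seen). It fell from 15.0 and 16.0 CPM to 8.50 and 9.71 CPM in RNASeq (-0.77 ± 0.14, adjusted p 0.0303) and from 16.2 and 13.6 CPM to 7.86 and 8.29 CPM in RIPSeq (-0.88 ± 0.13, adjusted p 0.000724). In U251 it did not pass, with -0.16 in RNASeq and -0.10 in RIPSeq. SLC36A1, a lysosomal exporter of small amino acids, was higher with miR-137 in both U343 RNASeq libraries, 34.3 and 27.5 CPM against 21.2 and 21.8 CPM, without passing (0.52 ± 0.14, adjusted p 0.0717).

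The next question was whether the response to miR-137 differed between the lines, tested as the interaction of mimic and line over the 8 RNASeq libraries. It passed for 9 of 41 members (22.0%, against 25.2% of all genes). The log2 change in U343 exceeded that in U251 by 2.25 ± 0.44 for SLC7A11 (adjusted p 0.009) and by 1.43 ± 0.24 for SLC6A6 (adjusted p 0.0045). It was below that in U251 for SLC43A3 (-1.55 ± 0.22, adjusted p 0.0026), SLC7A6 (-0.84 ± 0.18, adjusted p 0.0133), SLC7A5 (-0.79 ± 0.19, adjusted p 0.0203), SLC38A10 (-0.78 ± 0.17, adjusted p 0.012) and SLC3A2 (-0.60 ± 0.17, adjusted p 0.0319). The other two were SLC7A10 and SLC38A5, which had 0 reads in both U251 RNASeq controls, so that their fitted values depend on the prior count. For the members that fell in both lines, the interaction values were -0.08 ± 0.20 for SLC1A5, 0.19 ± 0.23 for SLC6A8, 0.17 ± 0.32 for SLC38A3, 0.40 ± 0.29 for SLC7A2 and -0.50 ± 0.37 for SLC43A2, and none passed. These members were picked by calls in the same direction in both lines, so these values do not show equal responses. The count of 9 changed when a library was left out. In RIPSeq 10 of 44 members were at an unadjusted p under 0.05, as were 3353 of all 15959 tested genes, and 7 members were called by DESeq2. By the adjusted p of edgeR 0 members passed, against 3.28% of genes. That count rose without either U251 RIPSeq control library. Shares of all genes were not computed for DESeq2 or with a library left out, so a shift of the whole table cannot be told from one of the members.

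The change with miR-137 in PABP-bound RNA was then set against that in total RNA of the same line, again as an interaction. In U251 0 of 34 members passed against 0.134% of genes. An unadjusted p under 0.05 was reached by 11 members and by 2688 of all 14210 tested genes. DESeq2 called 5 members (SLC1A1, SLC1A5, SLC3A2, SLC6A9 and SLC7A5). For SLC1A5 the fall in RIPSeq exceeded that in RNASeq by -1.42 ± 0.29 on the log2 scale (adjusted p 0.0943), and for SLC43A2 by -1.57 ± 0.41 (adjusted p 0.132). The edgeR count of 0 rose without either RIPSeq control library. Shares of all genes were not computed for such fits or for DESeq2. In U343 0 of 40 members passed against 0.00649% of genes, a count that changed without RNASeq miR-137 library 2. With all libraries, 5 members and 2712 of all 15413 tested genes had an unadjusted p under 0.05, and 0 members were called by DESeq2. SLC43A3 had the smallest p there, its fall being less deep in RIPSeq by 0.62 ± 0.19 (adjusted p 0.211).

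The study's own rule was also read out for the members. Each control library is paired with each miR-137 library, and a gene counts as lower where a two-sided Fisher's exact test in all 4 pairs has an adjusted p under 0.001 with an odds ratio over 2. Replicate spread does not enter this rule. In U251 RNASeq 2 members met it (2.21% of all genes did), SLC1A5 and SLC7A2. In U251 RIPSeq 5 met it against 1.49%, and these were SLC1A2, SLC1A5, SLC6A8, SLC7A2 and SLC43A2. U343 RNASeq had 6 against 2.88%, namely SLC1A5, SLC7A2, SLC7A10, SLC38A3, SLC43A2 and SLC43A3. In U343 RIPSeq SLC1A5, SLC7A2, SLC7A10, SLC43A1 and SLC43A2 met it, 5 against 3.40%. SLC1A5 and SLC7A2 met the rule in all 4 experiments, with odds ratios from 2.10 to 8.08 and from 2.32 to 6.70 over the pairs. The count in U251 RNASeq was 6 with an odds ratio over 1.5 (5.04% of all genes). It was 5 with totals scaled by TMM factors (3.9%) or without miR-137 library 1 (2.79%). That in U251 RIPSeq was 9 without control library 2, where the share of all genes was 6.75%.

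The lines differed widely before any miR-137, as the control RNASeq shows. Between U343 and U251 controls, 35 of 38 tested members differed, against 84.8% of all genes. Of these, 22 were higher in U343 (57.9% against 44.9%) and 13 lower (34.2% against 39.9%). CPM in this paragraph and the next is scaled over these 4 libraries. SLC38A1 had 10868 and 11908 reads in U251 and 1 and 8 in U343, which is 6400-fold lower by summed reads (95% counting interval 3370 to 14000, for counting error only). The fitted log2 difference was -12.58, and it was -11.62 without U343 library 1 and -14.65 without U343 library 2. SLC1A3 went from 861 and 910 reads to 8 and 7 (299-fold lower, interval 181 to 535). SLC7A11 was 16.3-fold lower in U343, at 903 ± 28.7 CPM in U251 and 55.4 ± 24.2 CPM in U343 (SD, n = 2 each, log2 difference -4.03 ± 0.27 SE, adjusted p 9.62e-07). SLC1A1, SLC1A2, SLC6A6, SLC6A9, SLC7A2 and SLC38A2 were also lower in U343.

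In the other direction, the pair SLC3A2 and SLC7A5 was higher in U343 in both parts. SLC7A5 was 35.7-fold higher, at 78.3 ± 5.13 CPM in U251 and 2798 ± 438 CPM in U343 (SD, n = 2 each, log2 difference 5.16 ± 0.17 SE, adjusted p 1.72e-08), and SLC3A2 was 11.8-fold higher (3.56 ± 0.12, adjusted p 2.02e-08). Pseudogenes of SLC7A5 are annotated, so that some of its reads could be shared. SLC7A10 and SLC36A2 had no read in the U251 RNASeq controls and 150 and 121 in the U343 RNASeq controls. That is at least 19.4-fold and at least 15.7-fold higher against a floor of 3 reads over the group. The U251 RIPSeq controls did hold reads of both, 9 and 1 for SLC7A10 and 22 and 5 for SLC36A2. SLC43A2 was 4.39-fold and SLC38A3 3.91-fold higher in U343, so that both were more abundant there. SLC1A5 differed by 1.38-fold (0.46 ± 0.13, adjusted p 0.00788), and SLC1A4 did not pass (0.21 ± 0.10, adjusted p 0.0756). Neighbouring genes differed in how they compared. SLC36A2 and SLC36A3 had no reads in the U251 RNASeq controls, while SLC36A1, 100011 bases from SLC36A2 on chromosome 5, had 451 and was 1.58-fold higher in U343. These comparisons carry the difference in the cDNA step as well as that of the lines.

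**Figure D4:**
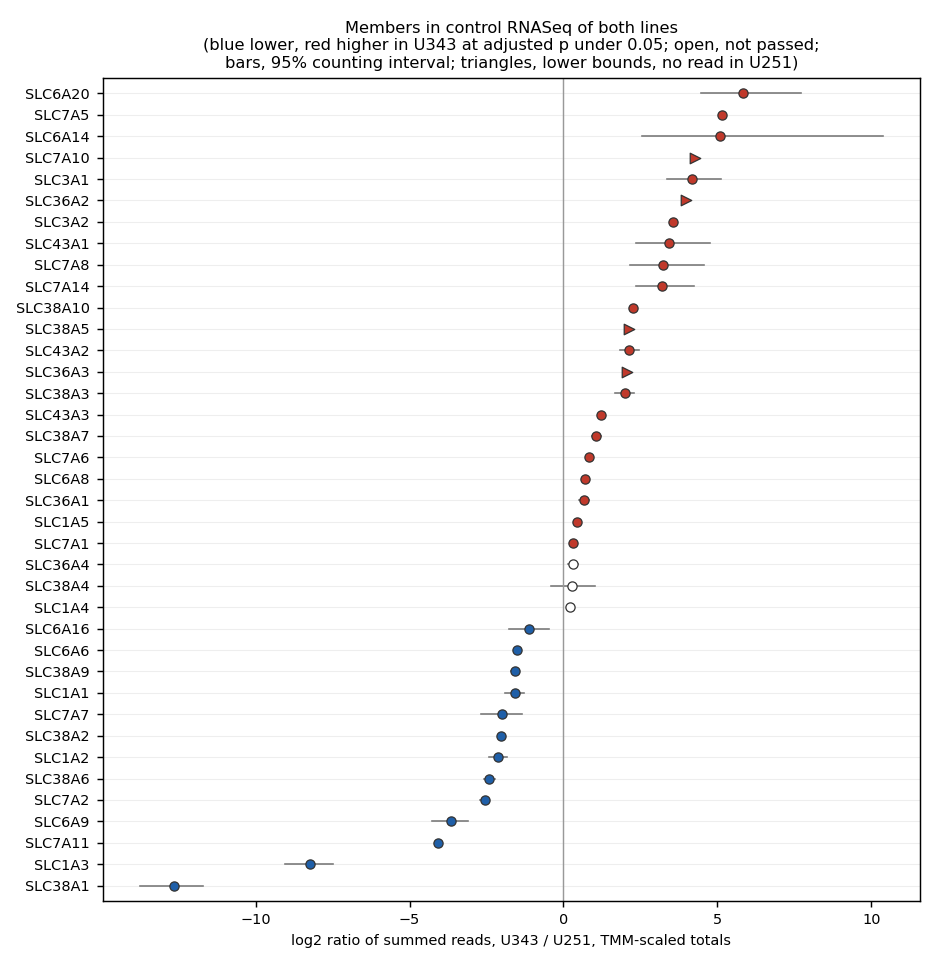
The log2 ratio of summed reads in U343 to U251 control RNASeq (x axis) is plotted for the 38 tested members (rows, sorted), with 95% counting intervals, which cover counting error only, as bars. SLC38A1 and SLC1A3 lie farthest left, SLC6A20 and SLC7A5 farthest right, and triangles mark lower bounds for 4 members with no read in the U251 RNASeq controls.

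The last comparison set PABP-bound against total RNA of control cells, the question being which members were relatively enriched on PABP. In U251, 8 of 29 members were higher in RIPSeq (27.6%, against 7.87% of genes) and 0 lower against 6.14%. With DESeq2, 10 were called. The 8 were SLC1A4, SLC1A5, SLC3A2, SLC6A8, SLC6A9, SLC7A1, SLC7A5 and SLC43A2. SLC7A5 rose from 73.8 ± 5.03 CPM in RNASeq to 999 ± 222 CPM in RIPSeq (SD, n = 2 each, 3.76 ± 0.34 on the log2 scale, adjusted p 0.00599). SLC6A9 was at 4.19 ± 0.154 CPM in RNASeq and 39.8 ± 22.0 CPM in RIPSeq (3.25 ± 0.49, adjusted p 0.0213), a call lost under 3 of 9 alternatives, with 2.54 to 3.64 when 1 library was left out. The count of 8 was unstable when a library was left out. The lone library of a group was then assumed to vary like the other group, and the filter on low counts was run anew. Shares of all genes were not computed for DESeq2 or with a library left out.

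In U343 the differences were smaller. There 10 of 37 members were higher in RIPSeq (27.0% against 24.4% of genes) and 5 lower (13.5% against 24.2%), 15 in all. Fewer were called when any library was left out, and shares of all genes were not computed for those fits. SLC7A8 was 2.86-fold higher, from 1.96 ± 0.306 to 5.57 ± 0.201 CPM (SD, n = 2 each, 1.52 ± 0.17 SE, adjusted p 0.000382). SLC6A8 was at 69.7 ± 9.79 CPM in RNASeq and 171 ± 1.51 CPM in RIPSeq (1.29 ± 0.10, adjusted p 9.9e-05), and SLC7A5 was higher by 0.66 ± 0.12 (adjusted p 0.00344). SLC38A3 was higher by 1.37 ± 0.29 (adjusted p 0.00674), a call lost without RNASeq control library 2. SLC38A2 was lower in RIPSeq, from 120 ± 1.23 to 67.7 ± 5.99 CPM (-0.82 ± 0.08, adjusted p 0.000263). SLC36A2 was lower by -0.74 ± 0.25 (adjusted p 0.04), a call lost under 5 of 8 alternatives. SLC43A2, SLC6A8, SLC7A5 and SLC1A4 were higher in RIPSeq in both lines, and SLC3A2 in U251 only, with -0.03 ± 0.09 in U343 (a difference between lines that was not tested). These comparisons use the same control libraries as those with miR-137, so the values are not independent of them.

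**Figure D5:**
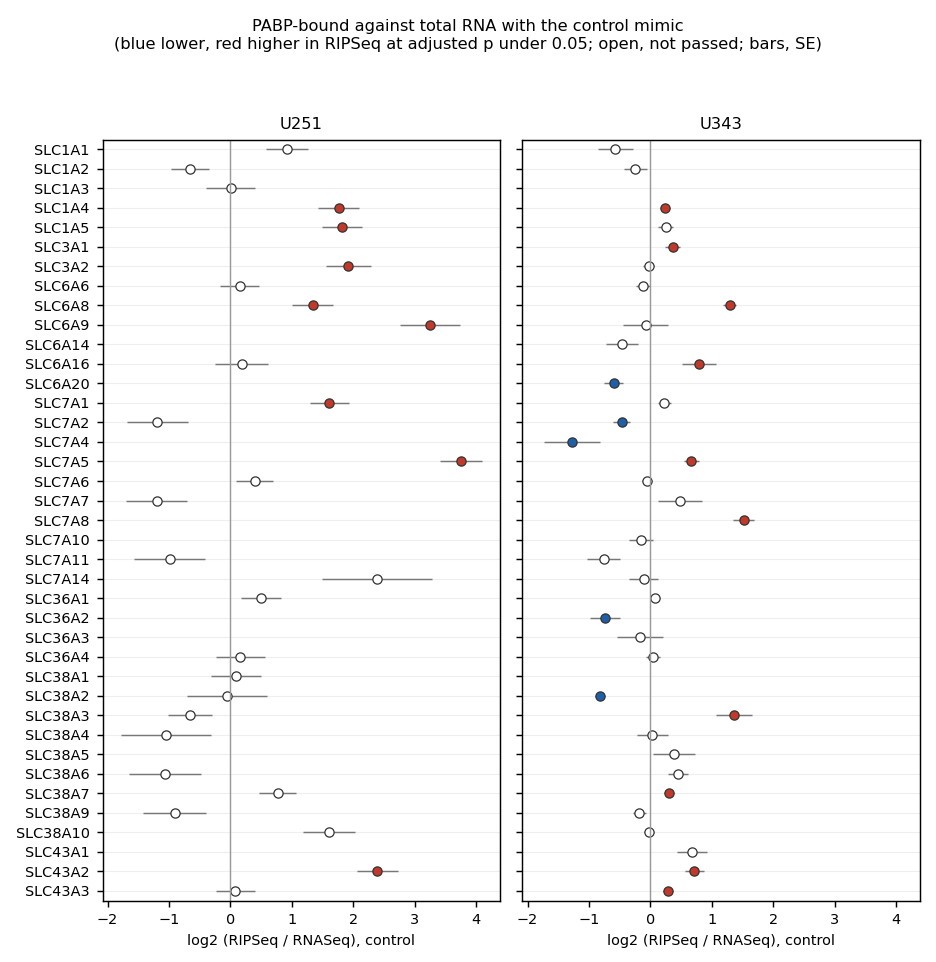
The log2 ratio of RIPSeq to RNASeq in control cells (x axis) is plotted for the members tested in either line (rows, by family), 1 panel per line, with bars for the SE and filled points for adjusted p under 0.05. U251 shows 8 filled points to the right of 0 and none to the left, and U343 shows 10 to the right and 5 to the left, nearer to 0.

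Genes that use the amino acids were read from lists of enzymes and of lysosomal nutrient sensors. In U251 RNASeq, 4 of 5 tested branched chain enzymes fell, with BCAT1, which starts leucine breakdown, at 543 CPM in control cells and 135 CPM with miR-137 (log2 change -2.00, adjusted p 6.96e-08). Of the glutamine and glutamate enzymes 6 of 9 fell and 0 rose. For cystine and glutathione 5 of 6 fell, for arginine and polyamines 3 of 5, with ODC1, the first enzyme of polyamine synthesis, at -1.68 (adjusted p 8.24e-07). Of 12 nutrient sensors 6 fell and 4 rose. The background was 29.0% of all tested genes lower and 28.7% higher. In U251 RIPSeq 0 of these lists' genes passed in edgeR, against 0.263% of all tested genes lower and 0.944% higher. The list medians there were -0.73 to -0.30, against -0.02 for all genes.

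In U343 RNASeq 2 of 11 glutamine and glutamate enzymes fell and 1 rose, GLUL, the glutamine synthetase (1.12, adjusted p 0.0139). None of the cystine and glutathione or arginine and polyamine genes passed there, 1 of 5 branched chain enzymes rose, and 2 of 12 nutrient sensors fell, against 11.7% of all genes lower and 8.31% higher. In U343 RIPSeq 6 of 11 glutamine and glutamate enzymes fell and 2 rose, with ASNS, which makes asparagine from glutamine, at -1.19 (adjusted p 5.3e-05) and PSAT1 of serine synthesis at -1.20 (adjusted p 5.51e-05). Of the other lists there, 3 of 5 branched chain enzymes fell and 1 rose, 2 of 6 cystine and glutathione genes fell and 1 rose, 3 of 4 arginine and polyamine genes fell and 0 rose, and 4 of 12 nutrient sensors fell and 4 rose, against 27.8% of all genes lower and 28.5% higher. RRAGD, a GTPase that tethers the growth regulator mTORC1 to lysosomes and was picked after its values were seen, fell in U251 RNASeq (-1.88, adjusted p 5.38e-07), U343 RNASeq (-2.23, adjusted p 0.00647) and U343 RIPSeq (-1.89, adjusted p 4.46e-06). In U251 RIPSeq it was at 33.0 CPM in control cells and 19.4 CPM with miR-137 (-0.77, adjusted p 0.395).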

How the data were processed

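The 16 libraries hold RNASeq and PABP RIPSeq of U251 and U343 cells, 2 per group, with groups taken from the sample titles. The authors used RMAP for alignment to hg18 and assigned reads to 1 merged RefSeq transcript per gene, and the deposited values are raw read counts. Treatment of reads with several matches is not given in the sources used here. One repeated SLC35E2 line was dropped from the U251 tables.

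Depth was 10156675 to 45134766 counted reads per library. Reads carry no molecular identifiers, and the intervals and floors hold for counting error alone. Counts were compared with edgeR 4.0.16 (quasi-likelihood F test, TMM, filterByExpr) in R 4.3.3, within each experiment and over 8 libraries for interactions, with Benjamini-Hochberg adjustment over all tested genes and a threshold of 0.05. SE is the log2 change divided by the root of F, and values after ± are SE for log2 values and SD for CPM. Ratios of summed reads carry exact 95% binomial intervals, and groups with 0 reads a floor of 3. Fisher's exact test followed the study's rule. Procedures were tested on simulated data.

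Alternatives were DESeq2 1.42.0, upper-quartile scaling, no filter, a mean of at least 50 reads, a replicate block and leaving out each library. The crossed block in U251 RIPSeq and the deposited totals were added after seeing the data. Members and lists were chosen with earlier results of these data known. Values per library are given for members the study names, members with a known place in glioma or amino acid supply, the 3 largest falls and rises per experiment among calls with at least 50 reads, and the largest line, assay and interaction differences. No transcript lengths were used, so levels of genes were not compared per length. Replicate numbers were checked for pairing in 2 pairs per experiment, and deviations of same-numbered libraries correlated by 0.08 and -0.11 in U251 RNASeq and RIPSeq and by 0.14 and 0.42 in U343, which does not establish pairing.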

Additional observations from a re-analysis of the deposited data

Results flagged for a closer look

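The change with miR-137 differed between the lines in total RNA for 9 of 41 members by the test of the interaction itself (22.0%, against 25.2% of all genes), and the 3 with the smallest adjusted p are given here. The log2 change in U343 RNASeq minus that in U251 RNASeq was 2.25 for SLC7A11, 1.43 for SLC6A6 and -1.55 for SLC43A3. SLC7A11 and SLC6A6 fell in U251 RNASeq and did not pass in U343 RNASeq, and SLC43A3 fell in U343 RNASeq and did not pass in U251 RNASeq. All 3 calls held under each of the 13 alternatives, those leaving out a library included. The lines also differ in how cDNA was made, which cannot be told apart from the line here.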

How the results depend on the processing

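Of the 52 called differences of named members, 39 held under every alternative run, and none changed sign. The members lower with miR-137 in U251 RIPSeq were 7 with DESeq2 and 6 with the replicate block or the crossed block, which was chosen after seeing the data, and 1 was higher with the replicate block. In U343 RNASeq 2 members were higher with DESeq2 or the replicate block and 0 with a mean of at least 50 reads, and in U343 RIPSeq 2 were higher with at least 50 reads and 7 with the replicate block. By the pairwise rule 6 members passed in U251 RNASeq with an odds ratio over 1.5 (5.04% of all genes) and 5 with TMM totals (3.9%). In U343 RIPSeq 12 passed with an odds ratio over 1.5 (8.13%). Between the assays, U251 gave 1 member with no filter and 13 with the replicate block, and U343 gave 9 with DESeq2 or the replicate block. The assay interaction in U251 called 5 with DESeq2, and the line interaction in RIPSeq 7 with DESeq2 and 2 with at least 50 reads. The replicate block lost 2 of the 52 differences. Shares of all genes were not computed for the edgeR and DESeq2 counts of this paragraph, and the cause of these changes was not tested.

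Leaving out 1 library at a time gave 1 to 25 members lower and 0 to 10 higher in U251 RIPSeq, and 0 to 11 lower and 0 to 5 higher in U343 RNASeq. The pairwise rule gave 2 to 5 in U251 RNASeq (2.45% to 2.83% of all genes) and 5 to 9 in U251 RIPSeq (1.69% to 6.75%). The assay differences ranged from 1 to 34 in U251 and 7 to 12 in U343, the assay interaction from 0 to 28 in U251 and 0 to 4 in U343, and the line interaction from 3 to 12 in RNASeq and 0 to 25 in RIPSeq. A lone library was then assumed to vary like the other group. The filter on low counts was run anew each time, so that the number of members tested could change. Shares of all genes were not computed for the edgeR counts, so shifts of the whole table and of the members cannot be told apart. Depth limits the members with few reads, and 16 were never tested.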
